A study of Mus musculus with 3 samples.

Results

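The SOX B, C and E genes encode 9 transcription factors of the brain that bind DNA through a shared HMG box: Sox2 and Sox3 (group B1), Sox21 (group B2), Sox4, Sox11 and Sox12 (group C), and Sox8, Sox9 and Sox10 (group E). These 9 genes, of 21883 genes in the annotation, were taken by name, and their loci were set as the gene body with 50 kb on either side on mouse build mm10. The loci held 111 of 127094 peaks in the PDGFB-NLS library, 62 of 57616 in the PDGFB-WT library and 93 of 107627 in the Control library. Single-cell ATAC-seq, whose transposase cuts accessible DNA, was run on mouse nuclei. The study made tumors with piggyBac transposon plasmids delivered by in utero electroporation. One library carried overexpression of PDGFB-NLS, one overexpression of PDGFB-WT, and the third is labelled Control; all 3 have the tissue label glioma. PDGFB is a growth factor subunit that drives the proliferation of oligodendrocyte precursor cells. The labels spell out neither NLS nor the promoter of the plasmids, and give no age, no strain and no number of animals per library. They also do not say whether the Control tissue was a tumor, though its deposited data are named Normal. The mutant IDH in the study's title is not assigned to any of the 3 libraries.

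SOXB1 proteins keep neural progenitors undifferentiated, and the SOXB2 protein SOX21 counters them at shared targets. SOXC proteins act later, as cells leave the cycle and become young neurons, and are also found in dividing precursors. SOXE proteins specify glia: SOX9 serves astrocytes and early glial commitment, SOX10 serves oligodendrocyte precursors and myelinating oligodendrocytes, and SOX8 assists both.

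RefSeq promoters (build GRCm38.p6, 250 bases before the gene start and 50 after it) were found for 6 of the 9 genes. The 3 that follow, 300 bases each, belong to the genes at whose starts a PDGFB library had the most signal relative to Control, over peaks of each library. They are written 5′ to 3′ on the gene's strand, and capitals mark each CCAAT box (CCAAT) and GC box (GGGCGG), read on either strand. All 3 genes lie on the minus strand: Sox11 at chr12:27342669-27342968, Sox4 at chr13:28953650-28953949 and Sox21 at chr14:118236981-118237280.
Sox11: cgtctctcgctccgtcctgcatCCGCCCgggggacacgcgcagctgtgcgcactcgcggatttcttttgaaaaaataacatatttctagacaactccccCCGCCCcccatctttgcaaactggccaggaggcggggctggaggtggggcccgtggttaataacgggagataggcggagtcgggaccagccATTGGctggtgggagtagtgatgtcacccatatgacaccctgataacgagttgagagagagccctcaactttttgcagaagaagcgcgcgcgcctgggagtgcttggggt
Sox4: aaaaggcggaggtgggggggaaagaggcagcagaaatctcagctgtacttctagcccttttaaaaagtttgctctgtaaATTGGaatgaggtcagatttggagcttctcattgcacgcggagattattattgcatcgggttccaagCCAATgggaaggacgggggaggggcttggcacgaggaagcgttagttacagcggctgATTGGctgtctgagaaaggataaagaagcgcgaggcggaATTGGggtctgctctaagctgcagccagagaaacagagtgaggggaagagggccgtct
Sox21: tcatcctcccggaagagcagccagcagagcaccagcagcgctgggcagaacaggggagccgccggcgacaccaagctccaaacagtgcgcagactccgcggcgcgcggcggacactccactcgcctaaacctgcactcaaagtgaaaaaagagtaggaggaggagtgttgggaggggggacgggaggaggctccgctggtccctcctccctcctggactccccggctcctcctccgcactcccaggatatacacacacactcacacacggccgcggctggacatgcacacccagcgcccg
A CCAAT box stood 4 times in the Sox4 window, once in that of Sox11 and not at all in that of Sox21, and 37.4% of 32851 RefSeq promoters hold one. The Sox11 window held 2 GC boxes and the others none (35.7% of promoters). The SOX core ACAAT (31.0% of promoters) and the TATA box TATAAA (13.6%) did not occur in any of the 6 windows, a statement about these letters in these windows only. CG pairs numbered 21 in Sox11, 12 in Sox4 and 22 in Sox21, against a median of 7 over all promoters. In each of the 3 libraries a peak covered the whole window of Sox11, Sox4, Sox21, Sox2 and Sox8. No peak reached the Sox12 window (chr2:152397997-152398296), whose gene-end peak begins beyond it, at position 152398538.

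The libraries differed in size and depth: 10996, 7441 and 2226 nuclei in PDGFB-NLS, PDGFB-WT and Control, with 31177621, 7008951 and 31588784 counts in peaks and a median of 2767.5, 821 and 13054 counts per nucleus. Levels are counts per 1000000 counts in regions called in all 3 libraries (CPM). One count is worth 0.0407 CPM in PDGFB-NLS, 0.148 in PDGFB-WT and 0.0388 in Control, so PDGFB-WT values carry the widest intervals. With 1 library per group no difference could be tested: each ratio has a 95% interval that covers counting error only, and none separates a condition from an animal or a batch. A ratio is the log2 of the CPM ratio relative to the median over all genes, and "past 2-fold" means beyond 1 or -1 on that scale. Barcode sequences shared between libraries numbered 45 for PDGFB-NLS and Control, 22 for PDGFB-WT and Control and 118 for PDGFB-NLS and PDGFB-WT, at most 2.02% of the smaller library. In sums over a whole library, fewer nuclei of a type and less signal per nucleus cannot be told apart. The comparisons of PDGFB-NLS and of PDGFB-WT with Control share the Control library.

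At gene ends (peaks within 1000 bp of the annotated end with the most signal, which is the gene start for the 6 genes with a known strand), Sox11 stood out among the SOX genes. In PDGFB-NLS against Control, 1 of 8 measured SOX genes, Sox11, was past 2-fold higher and 0 were lower, against 1.27% and 0.186% of 13426 genes. In PDGFB-WT against Control, again 1 of 8, Sox11, was higher and 0 lower, against 2.26% and 0.25% of 10780 genes. In PDGFB-NLS against PDGFB-WT, 0 of 8 were past 2-fold, against 0.213% of 10792 genes higher and 0.436% lower. The median of the 8 SOX ratios was 0.08, 0.51 and -0.27 in these comparisons. The interval lay above 0 for 3, 5 and 2 of the genes and below 0 for 1, 2 and 4. Such intervals were not counted over all genes, so these counts do not set the SOX genes apart.

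**Figure D1:**
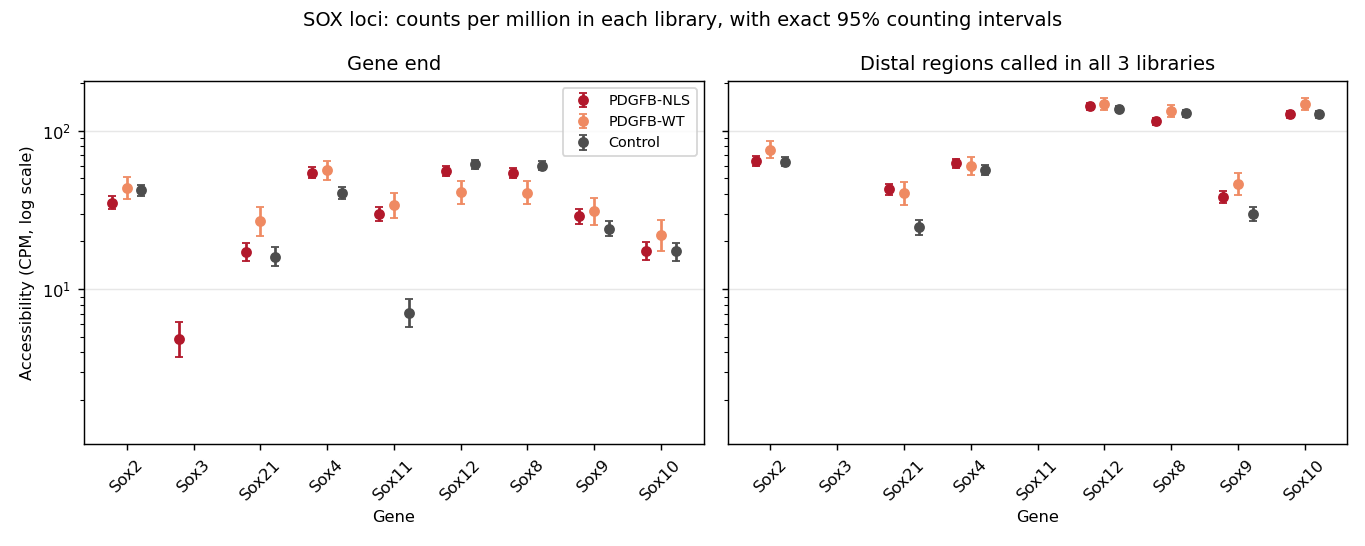
CPM on a log axis at the gene end (left) and summed over distal regions called in all 3 libraries (right) for each SOX gene in PDGFB-NLS, PDGFB-WT and Control, with 95% counting intervals as bars and 1 library per group. At the gene end Sox11 is at 29.9 and 33.8 CPM in the PDGFB libraries and 7.10 CPM in Control; Sox3 has a point in PDGFB-NLS alone, where its peak was called.

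Of the SOXB1 genes, Sox2 was measured in every library and Sox3 in one. Sox2, a core factor of neural stem cells that is also used by astrocytes, lies inside the long noncoding RNA gene Sox2ot. Its gene end held 35.2 CPM in PDGFB-NLS, 43.4 CPM in PDGFB-WT and 42.1 CPM in Control, so PDGFB-NLS was lowest. The Sox2 ratio was -0.24 (-0.42 to -0.06) in PDGFB-NLS against Control and 0.20 (-0.06 to 0.46) in PDGFB-WT against Control. PDGFB-NLS against PDGFB-WT gave -0.43 (-0.70 to -0.16). Part of the Control sum came from a second peak of 10.6 CPM, at chr3:34650885-34651728, called in Control alone. Over regions called in all 3 libraries Sox2 had 35.2 CPM in PDGFB-NLS, 43.4 CPM in PDGFB-WT and 31.5 CPM in Control, and the 2 ratios against Control became 0.17 (-0.02 to 0.37) and 0.61 (0.34 to 0.88). The sign for PDGFB-NLS thus follows whether that peak is counted. With both ends and the gene body, PDGFB-WT against Control turned to -0.16.

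Sox3, which acts alongside Sox2 in progenitors, had peaks in PDGFB-NLS alone. Its gene-end peak (chrX:60894021-60894945) held 120 counts, or 4.89 CPM, and 2 distal peaks 5.34 kb and 23.6 kb away held 1.51 and 1.34 CPM. A region with no called peak has an unknown count, so no ratio was formed. Regions called in PDGFB-NLS alone made up 23.8% of the regions at the 9 loci and 21.3% of those of the whole series.

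Sox21, the SOXB2 gene, had 17.2 CPM at its gene end in PDGFB-NLS, 26.8 CPM in PDGFB-WT and 16.1 CPM in Control: PDGFB-WT was high and the other libraries were nearly level. The ratio was 0.12 (-0.16 to 0.39) for PDGFB-NLS against Control, 0.90 (0.54 to 1.25) for PDGFB-WT against Control and -0.77 (-1.12 to -0.41) for PDGFB-NLS against PDGFB-WT. The distal region 2.57 kb beyond the gene (chr14:118230083-118231238) had another order, with 42.6 CPM in PDGFB-NLS, 40.2 CPM in PDGFB-WT and 24.6 CPM in Control. There both PDGFB libraries were higher than Control, with ratios of 0.77 (0.57 to 0.97) and 0.64 (0.34 to 0.92). The order at the Sox21 gene end depended on the window. Within 2000 bp of the end the ratios were 0.51 and 0.28 for PDGFB-NLS and PDGFB-WT against Control, and the ratio between the PDGFB libraries turned to 0.25; with both ends and the gene body, PDGFB-WT against Control was 0.10.

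Among the SOXC genes, Sox4, broadly used in progenitors and young neurons, had 54.4 CPM in PDGFB-NLS, 56.0 CPM in PDGFB-WT and 40.4 CPM in Control. Control was lowest, at ratios of 0.44 (0.28 to 0.61) for PDGFB-NLS and 0.63 (0.39 to 0.86) for PDGFB-WT. Without a peak of 8.30 CPM called in PDGFB-WT alone, the second ratio was 0.39 (0.13 to 0.64), and per kb of peak length it turned to -0.20. The intervals of PDGFB-NLS against PDGFB-WT spanned 0 with that peak (-0.17, -0.40 to 0.06) and without it (0.07, -0.18 to 0.32).

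Sox11, a factor of immature neurons and proliferating precursors, had 29.9 CPM (27.0 to 33.0) in PDGFB-NLS, 33.8 CPM (28.1 to 40.3) in PDGFB-WT and 7.10 CPM (5.75 to 8.67) in Control, and Control did not overlap the others. The fold relative to the median gene was 4.25 in PDGFB-NLS and 5.31 in PDGFB-WT against Control. Of 13426 genes, 5 had a ratio at least as high in PDGFB-NLS against Control, Sox11 included, and of 10780 genes 7 had one in PDGFB-WT against Control. PDGFB-NLS against PDGFB-WT gave -0.31 (-0.60 to -0.00). The PDGFB-NLS sum held a second peak within the gene, at chr12:27340872-27341786 (4.52 CPM), not called elsewhere. In the start peak alone, chr12:27342401-27343369, Sox11 had 25.4 CPM in PDGFB-NLS, 33.8 CPM in PDGFB-WT and 7.10 CPM in Control, with ratios of 1.85 (1.52 to 2.20) and 2.40 (2.01 to 2.80) against Control and -0.53 (-0.84 to -0.22) between the PDGFB libraries.

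Sox12, the most weakly activating SOXC protein, was lowest in PDGFB-WT, with 55.9 CPM in PDGFB-NLS, 41.0 CPM in PDGFB-WT and 61.2 CPM in Control. Its ratio was -0.12 (-0.26 to 0.03) in PDGFB-NLS against Control, -0.42 (-0.68 to -0.16) in PDGFB-WT against Control and 0.32 (0.06 to 0.58) in PDGFB-NLS against PDGFB-WT. The low Sox12 level in PDGFB-WT depended on the window: within 2000 bp of the end, and with both ends and the gene body, PDGFB-WT against Control was 0.0024 and 0.12, and PDGFB-NLS against PDGFB-WT turned to -0.06 and -0.21.

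The SOXE genes differed less than Sox11. Sox8 had 54.2 CPM in PDGFB-NLS, 40.6 CPM in PDGFB-WT and 60.2 CPM in Control, the same order as Sox12. Its ratios were -0.13 (-0.28 to 0.01) for PDGFB-NLS and -0.41 (-0.68 to -0.15) for PDGFB-WT against Control, which became 0.06 per kb of peak length for PDGFB-NLS and 0.03 with both ends and the gene body for PDGFB-WT. Sox9 had 28.7 CPM in PDGFB-NLS, 31.0 CPM in PDGFB-WT and 24.1 CPM in Control, so both PDGFB libraries were higher. Its ratios were 0.27 (0.05 to 0.49) and 0.52 (0.19 to 0.84) against Control, and 0.02 and 0.03 with barcodes weighted equally.

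Sox10 had 17.5 CPM in PDGFB-NLS, 21.9 CPM in PDGFB-WT and 17.3 CPM in Control at the end with the most signal, and its ratio was 0.04 (-0.23 to 0.30) for PDGFB-NLS and 0.50 (0.11 to 0.88) for PDGFB-WT against Control. The PDGFB-WT sum had 12.4 CPM from a peak called in PDGFB-WT alone (chr15:79164095-79165106). The region called in all 3 libraries had 17.5 CPM in PDGFB-NLS, 9.48 CPM in PDGFB-WT and 17.3 CPM in Control. In that region PDGFB-WT was the lowest library, from 64 counts, under the minimum of 100 counts for a ratio. The higher Sox10 level in PDGFB-WT therefore rested on a single peak. With both ends and the gene body the ratios against Control were -0.58 and -0.04.

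**Figure D2:**
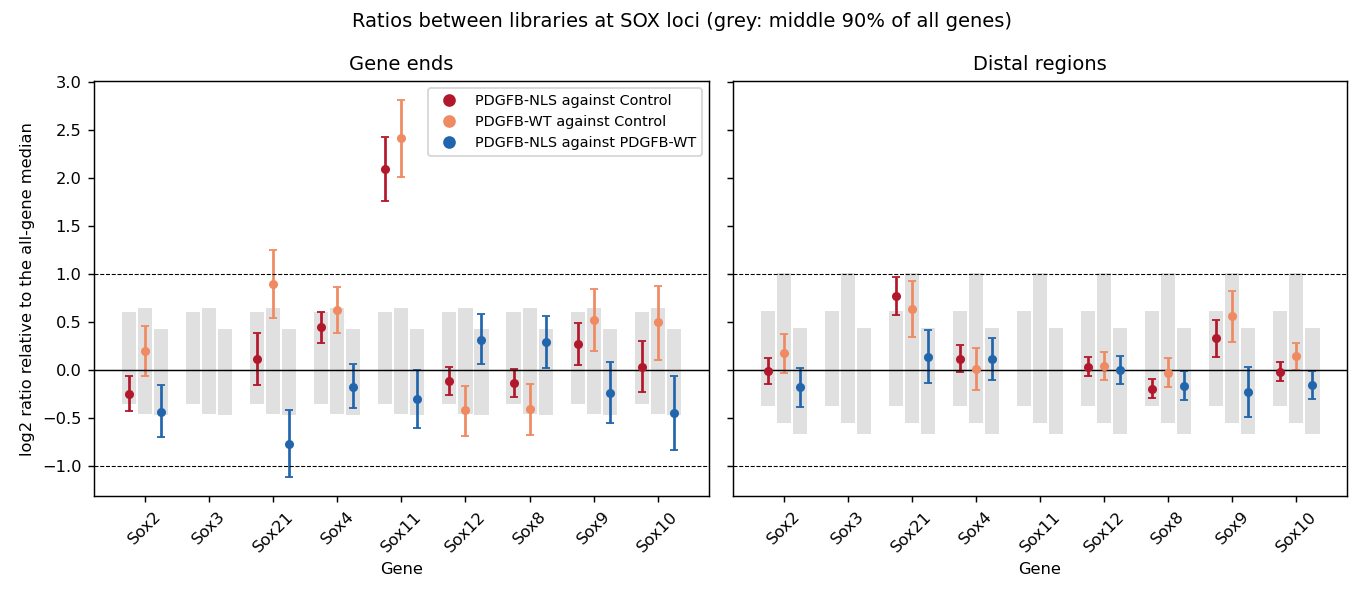
Log2 ratio of each SOX gene relative to the all-gene median, at gene ends and in distal regions, for each PDGFB library against Control and between the PDGFB libraries, with 95% counting intervals; grey bars span the middle 90% of all genes and dashed lines mark 2-fold. Sox11 at gene ends, at 2.09 and 2.41 against Control, has the one pair of points beyond the 2-fold lines.

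Peaks of the 3 libraries merged into 126 regions at the 9 loci, and 54 of them (42.9%) were called in every library, against 32.2% of 147229 regions in the series. Sox12 had 12 of 16 regions called in all libraries, Sox8 12 of 30, Sox10 12 of 24 and Sox2 6 of 21. Sox11 had 1 of 6, its start peak, and Sox3 had 0 of 3. Just 3 regions (2.38%, against 2.04% in the series) were called in both PDGFB libraries and not in Control. These were a Sox11 gene-body region (chr12:27338809-27339770) with 7.61 CPM in PDGFB-NLS and 9.04 CPM in PDGFB-WT, a Sox8 region 8.96 kb beyond the gene with 9.08 and 19.7 CPM, and a Sox4 region 15.3 kb away with 2.32 and 5.34 CPM.

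**Figure D3:**
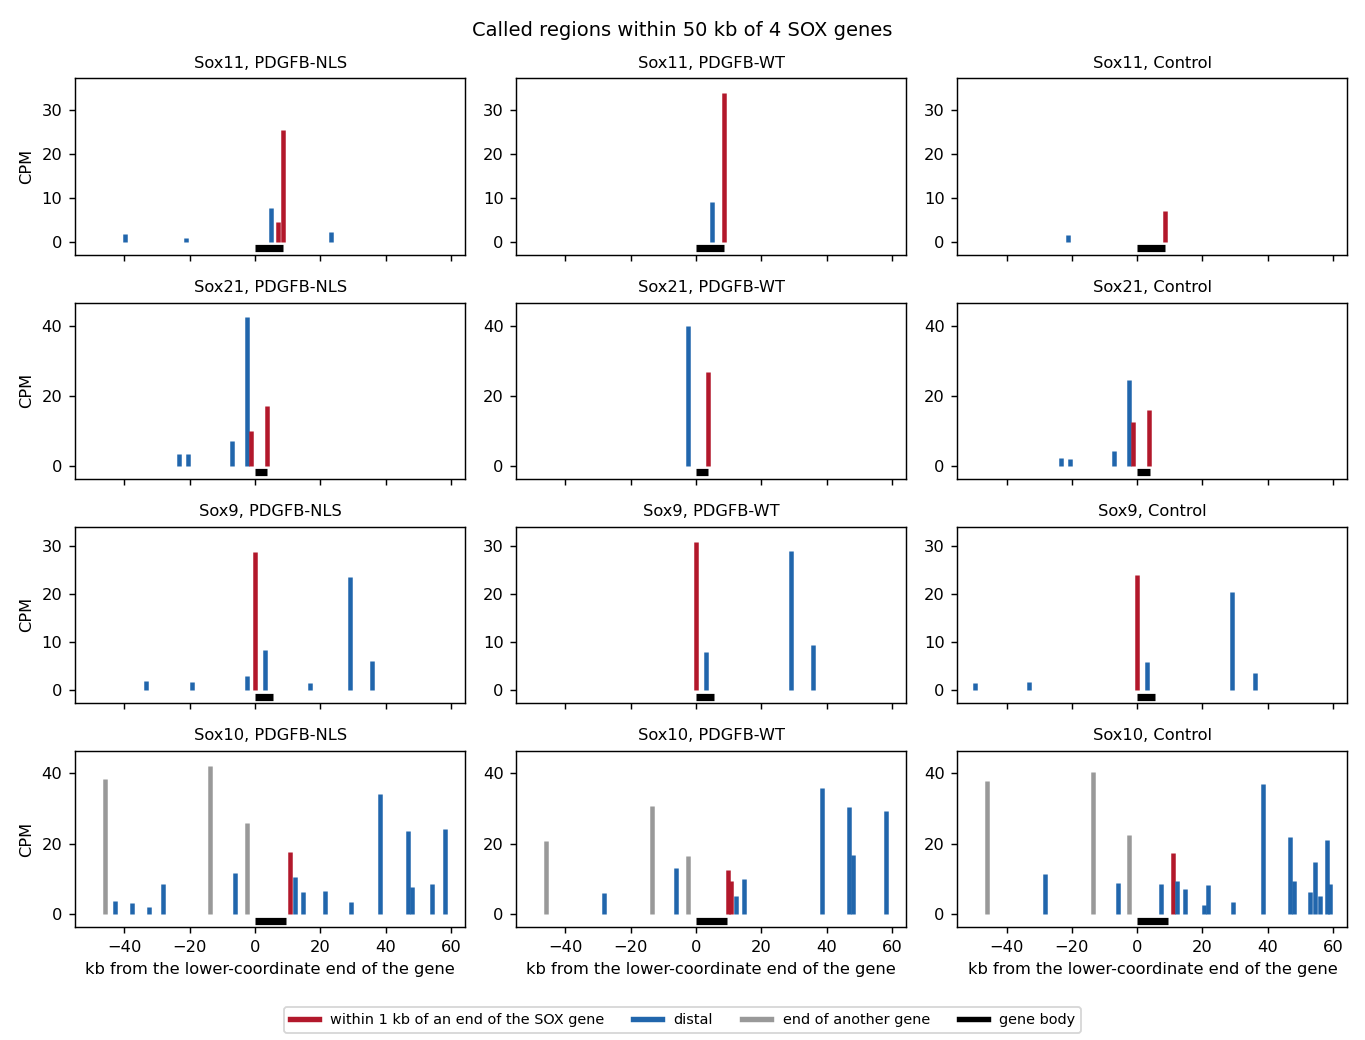
CPM of each called region at the Sox11, Sox21, Sox9 and Sox10 loci in PDGFB-NLS, PDGFB-WT and Control, against the distance in kb of its midpoint from the lower-coordinate end of the gene (black bar: gene body; red: within 1 kb of an end of the SOX gene; blue: distal; grey: end of another gene). The Sox11 start peak is lowest in Control, at 7.10 CPM, and the Sox21 region next to the gene is at 42.6, 40.2 and 24.6 CPM in the 3 libraries.

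Summed over distal regions called in all 3 libraries, 7 SOX genes could be measured and 0 were past 2-fold in any comparison. Sox11 and Sox3 have no such region and drop out: all distal peaks of Sox11, counted as each library called them, held 12.5 CPM in PDGFB-NLS, 9.04 CPM in PDGFB-WT and 1.44 CPM in Control. The background was 1.05% of 15382 genes higher and 0.117% lower in PDGFB-NLS against Control, 5.07% of 13153 higher and 0.411% lower in PDGFB-WT against Control, and 0.0912% of 13163 higher and 1.15% lower in PDGFB-NLS against PDGFB-WT. The median SOX ratios were 0.04, 0.14 and -0.16. The Sox9 sum over 3 regions was 38.1 CPM in PDGFB-NLS, 46.2 CPM in PDGFB-WT and 29.8 CPM in Control, with Control lowest at ratios of 0.33 (0.14 to 0.52) and 0.56 (0.29 to 0.83). The Sox8 sum over 8 regions was 114 CPM in PDGFB-NLS, 133 CPM in PDGFB-WT and 128 CPM in Control, and PDGFB-NLS was lowest at -0.19 (-0.29 to -0.09) against Control. The Sox10 sum over 8 regions was 127 CPM in PDGFB-NLS, 147 CPM in PDGFB-WT and 126 CPM in Control, with intervals against Control that reached or spanned 0. Intervals against Control also spanned 0 for Sox2, Sox4 and Sox12 in both PDGFB libraries.

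Taken one by one, 34 distal regions of the SOX loci were called in all 3 libraries, of which 29 had enough counts in PDGFB-NLS against Control and 17 in each of the other comparisons. None of these passed 2-fold. Among all single distal regions, 2.74% of 25530 were higher and 0.654% lower in PDGFB-NLS against Control, 12.7% of 8502 higher and 2.55% lower in PDGFB-WT against Control, and 0.85% of 8701 higher and 3.93% lower in PDGFB-NLS against PDGFB-WT. The lowest SOX ratios belonged to 2 SOXE regions that were weak in PDGFB-NLS. A Sox8 gene-body region (chr17:25567159-25568629) had 15.7 CPM in PDGFB-NLS, 31.3 CPM in PDGFB-WT and 25.9 CPM in Control. A region 38.5 kb from Sox10 (chr15:79202573-79203368) had 7.65 CPM in PDGFB-NLS, 16.9 CPM in PDGFB-WT and 9.31 CPM in Control, for -0.97 (-1.44 to -0.49) in PDGFB-NLS against PDGFB-WT. These regions were singled out after their values were seen. Other genes lie within the windows of Sox12 (Trib3, Nrsn2 and Zcchc3), Sox8 (Lmf1) and Sox10 (Micall1 and Polr2f), and a distal peak is not assigned to the SOX gene by its place.

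Nuclei were clustered within each library and clusters were named from marker genes that hold no SOX gene. They are astrocyte-like, oligodendrocyte-like, precursor-like (oligodendrocyte precursor cells, OPC), microglia or macrophage-like, endothelial-like, mural or fibroblast-like, lymphocyte-like and inhibitory neuron-like. The tissue label glioma has no marker list of its own, so tumor cells were not told apart from normal ones. One cluster of PDGFB-WT (17.3% of its nuclei) and one of Control (5.71%) met no name, under a threshold chosen with the data in view. Levels by cluster, in CPM over peaks at the gene body with 2 kb on either side, describe where each gene was open and are no test, since all peaks entered the clustering.

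**Figure D4:**
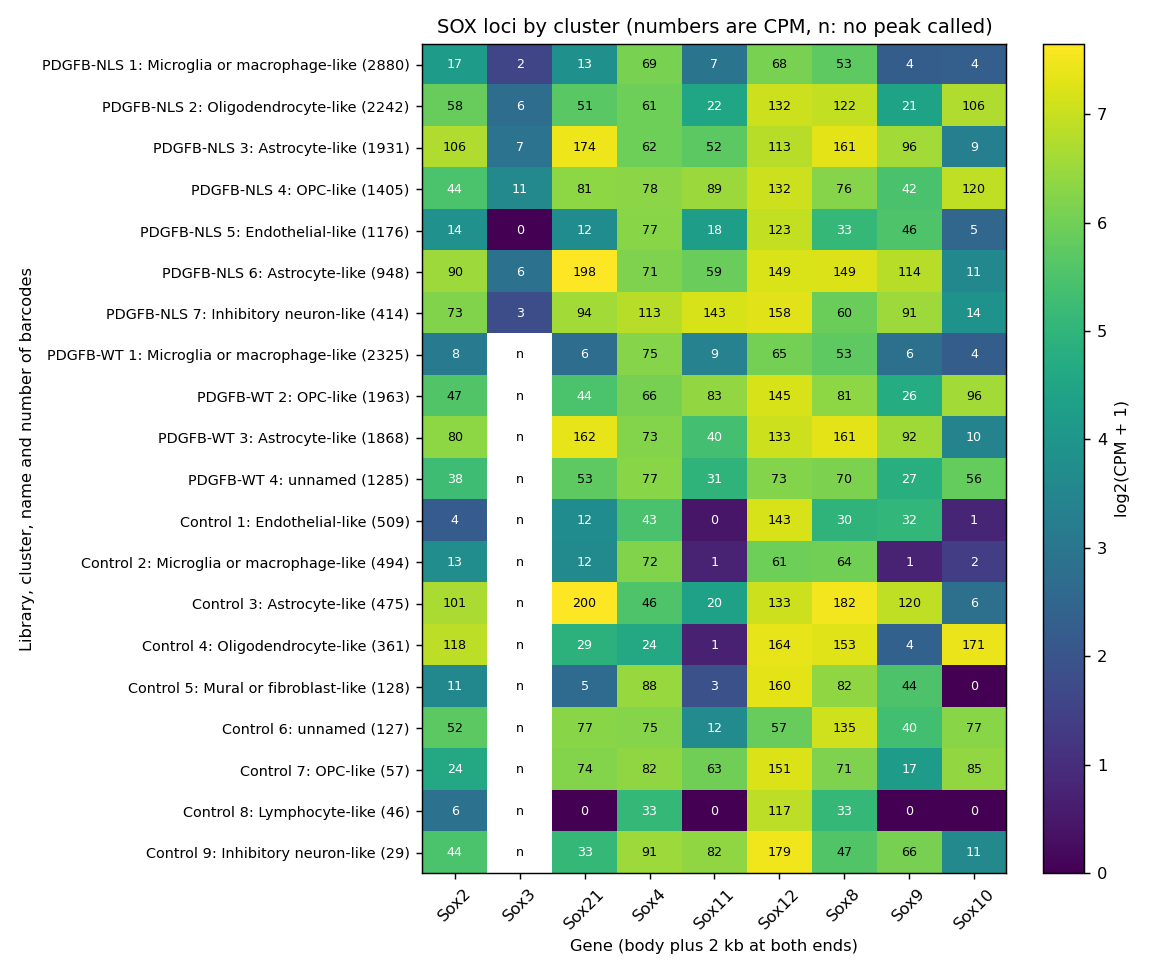
CPM (printed) and log2(CPM + 1) (colour) of each SOX gene over its gene body with 2 kb at both ends, in every cluster of PDGFB-NLS, PDGFB-WT and Control, with the number of nuclei in brackets; n marks a gene with no called peak. Sox21, Sox8 and Sox9 are high in astrocyte-like clusters, and Sox8 also in oligodendrocyte-like clusters. Sox10 is high in OPC-like and oligodendrocyte-like clusters, and Sox4 and Sox12 in nearly all clusters.

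Over this window Sox2, Sox21, Sox8 and Sox9 were most open in astrocyte-like nuclei, with Sox2 in Control as an exception. Inhibitory neuron-like nuclei of PDGFB-NLS held 90.6 CPM (64.4 to 123.8) of Sox9 and 73.0 CPM (50.2 to 102.5) of Sox2. Both intervals overlapped those of the astrocyte-like clusters. In Control such nuclei held 66.0 CPM (34.1 to 115.3) of Sox9, which overlapped the astrocyte-like interval too. With 50 kb flanks, Sox8 in PDGFB-NLS and Control and Sox2 in PDGFB-NLS were highest in oligodendrocyte-like nuclei. PDGFB-NLS had 2 astrocyte-like clusters and the other libraries 1 each. Sox9 held 95.9 and 114 CPM in those of PDGFB-NLS, 92.3 CPM in that of PDGFB-WT and 120 CPM in that of Control. In microglia-like nuclei, which should lack the gene, Sox9 held 3.75 CPM in PDGFB-NLS, 6.12 CPM in PDGFB-WT and 0.658 CPM in Control. Sox21 held 174 and 198 CPM in astrocyte-like nuclei of PDGFB-NLS, 162 CPM in PDGFB-WT and 199.5 CPM in Control. Sox8 held 161 and 149 CPM in PDGFB-NLS, 161 CPM in PDGFB-WT and 182 CPM in Control. In oligodendrocyte-like nuclei Sox8 held 122 CPM (109 to 136) in PDGFB-NLS and 153 CPM (140 to 166.5) in Control. Each interval overlapped that of an astrocyte-like cluster of the same library. Sox2 held 106 and 90.4 CPM in astrocyte-like nuclei of PDGFB-NLS, 80.0 CPM in PDGFB-WT and 101 CPM in Control. In oligodendrocyte-like nuclei Sox2 held 57.8 CPM in PDGFB-NLS and 118 CPM in Control, and in Control the intervals of these nuclei and of the astrocyte-like nuclei overlapped.

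Sox10 was confined to no single class. It held 120 CPM in OPC-like nuclei of PDGFB-NLS, 95.9 CPM in those of PDGFB-WT and 84.7 CPM in those of Control. In oligodendrocyte-like nuclei it held 106 CPM in PDGFB-NLS and 171 CPM in Control. The order of these classes thus differed: their intervals overlapped in PDGFB-NLS, and in Control oligodendrocyte-like nuclei were clear of OPC-like nuclei. Sox10 held 8.90 and 10.9 CPM in the astrocyte-like clusters of PDGFB-NLS, 9.69 CPM in that of PDGFB-WT and 6.12 CPM in that of Control. Microglia-like nuclei of the same libraries held 4.002, 3.764 and 1.645 CPM, and in Control the intervals of the astrocyte-like (3.50 to 9.94) and microglia-like nuclei (0.71 to 3.24) did not overlap.

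Sox4 and Sox12 were open nearly everywhere. Sox4 ranged over clusters between 60.6 and 113 CPM in PDGFB-NLS, between 66.5 and 76.8 CPM in PDGFB-WT and between 23.5 and 90.7 CPM in Control. Its low point in Control was in oligodendrocyte-like nuclei. In PDGFB-NLS the oligodendrocyte-like nuclei were lowest too, at 60.6 CPM. Sox3 in PDGFB-NLS was highest in OPC-like nuclei, at 11.1 CPM (6.96 to 16.8), which overlapped the 6.59 CPM (3.29 to 11.8) of an astrocyte-like cluster.

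Sox11 was graded. In PDGFB-NLS it held 143 CPM (110 to 184) in inhibitory neuron-like nuclei and 88.8 CPM (75.9 to 103) in OPC-like nuclei, which did not overlap. The astrocyte-like clusters followed at 51.7 and 58.8 CPM, then oligodendrocyte-like nuclei at 22.1 CPM, endothelial-like nuclei at 18.3 CPM and microglia-like nuclei at 6.75 CPM. In PDGFB-WT, OPC-like nuclei held 83.4 CPM, astrocyte-like nuclei 39.8 CPM and microglia-like nuclei 9.41 CPM. In Control, OPC-like nuclei held 62.7 CPM and astrocyte-like nuclei 19.8 CPM. Oligodendrocyte-like nuclei of Control held 0.616 CPM (4 counts), endothelial-like nuclei 0.370 CPM (1 count) and microglia-like nuclei 0.658 CPM (6 counts). The 29 inhibitory neuron-like nuclei of Control held 82.5 CPM, with Sox11 among the genes that set them apart. The order of OPC-like, astrocyte-like and microglia-like nuclei was thus the same in all 3 libraries.

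These clusters hold different shares of each library. OPC-like nuclei of PDGFB-NLS gave 34.7% of its Sox11 counts and 14.7% of its counts in regions called in all 3 libraries. For PDGFB-WT these shares were 59.9% and 30.8%, and for Control 21.9% and 2.47%. The Control cluster had 57 nuclei. In OPC-like nuclei the ratio of Sox11 was 0.42 (-0.23 to 1.15) in PDGFB-NLS against Control and 0.53 (-0.17 to 1.29) in PDGFB-WT against Control, and over regions called in all libraries -0.17 (-0.86 to 0.58) and 0.16 (-0.55 to 0.93). All 4 intervals spanned 0. The whole-library ratios at the gene end, 2.09 and 2.41, are over another window and are not set against these values. The part of cluster shares in the whole-library Sox11 difference was not tested. Summed levels of the 10 OPC markers in these clusters were 1318 CPM in PDGFB-NLS, 1285 CPM in PDGFB-WT and 1289 CPM in Control. These markers also named the clusters, so their levels do not show that the clusters are alike. Neural progenitor markers summed to 576, 420 and 445.5 CPM in the same order, and oligodendrocyte markers to 769, 643 and 641.5 CPM. None of the 6 measured SOX genes was past 2-fold in OPC-like nuclei, against 0.851% of genes higher and 1.17% lower in PDGFB-NLS against Control, and 0.94% higher and 3.68% lower in PDGFB-WT against Control. Sox10 in OPC-like nuclei was at 0.42 (-0.14 to 1.05) in PDGFB-NLS against Control. Sox21 was higher in OPC-like nuclei of PDGFB-NLS, at 81.1 CPM, than in those of PDGFB-WT, at 43.9 CPM (ratio 0.69, 0.22 to 1.19), over a window that takes in the distal region next to the gene.

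**Figure D5:**
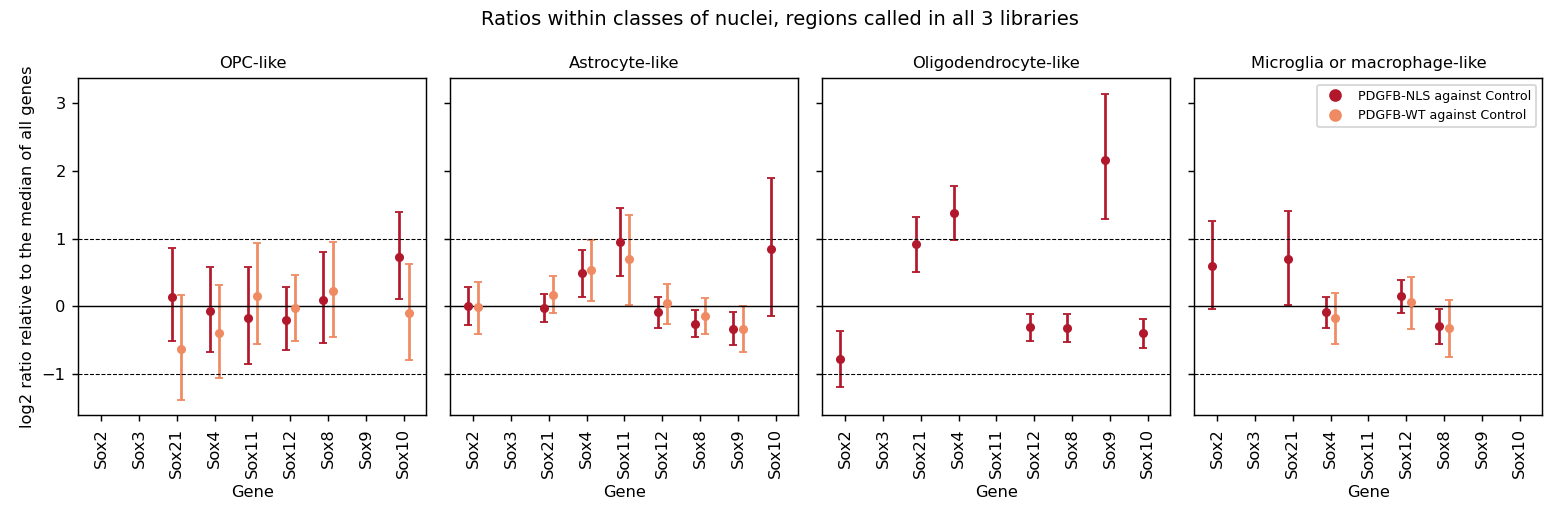
Log2 ratio of each SOX gene within nuclei of one class, over regions called in all 3 libraries, for PDGFB-NLS and PDGFB-WT against Control, relative to the all-gene median of that class, with 95% counting intervals; dashed lines mark 2-fold. In OPC-like nuclei the Sox11 intervals span 0, and in oligodendrocyte-like nuclei Sox9, at 2.17 (1.29 to 3.13), and Sox4, at 1.37 (0.98 to 1.77), lie above 1 in PDGFB-NLS.

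In astrocyte-like nuclei Sox11 did differ beyond counting error, with 54.7 CPM in PDGFB-NLS (both clusters) and 19.8 CPM in Control and a ratio of 1.39 (0.92 to 1.88), or 0.94 (0.45 to 1.46) over regions called in all libraries. It was the 1 of 8 measured SOX genes past 2-fold in these nuclei, against 2.21% of genes higher and 0.602% lower, and 0 were past 2-fold over the regions called in all libraries. The astrocyte-like cluster of PDGFB-WT was compared by number, since its leading genes held a neuron marker (Fezf2) and no astrocyte marker. Fezf2 was also among those of the Control cluster, beside 2 astrocyte markers. Sox11 held 39.8 CPM in the PDGFB-WT cluster, at 1.14 (0.52 to 1.75) against the Control cluster. In that comparison 3.14% of genes were past 2-fold higher and 1.47% lower. Over regions called in all libraries Sox11 was at 0.69 (0.02 to 1.34), within 2-fold. The microglia-like levels of Sox11 given above were also higher in both PDGFB libraries. So were those of Sox9, Sox10 and Sox12, but for Sox10 and Sox12 the intervals of both PDGFB libraries overlapped that of Control. Those of Sox2, Sox21, Sox4 and Sox8 were not higher in both. In endothelial-like nuclei Sox11 held 18.3 CPM (10.9 to 28.95) in PDGFB-NLS and 0.370 CPM (0.0094 to 2.06) in Control, the latter from 1 count. The microglia-like and endothelial-like levels sum the peaks of each library, and some Sox11 peaks of PDGFB-NLS were not called in Control. The summed neural progenitor markers of the astrocyte-like clusters were 482 and 503 CPM in PDGFB-NLS, 378 CPM in PDGFB-WT and 409 CPM in Control, above Control in PDGFB-NLS and below it in PDGFB-WT. Of the 8 progenitor markers 0 were at 0 in PDGFB-NLS and Control, and Eomes was at 0 in PDGFB-WT. Median depth in the astrocyte-like clusters was 1737 and 2749.5 counts per nucleus in PDGFB-NLS, 960.5 in PDGFB-WT and 11305 in Control. The part of progenitor markers, of depth and of other cells' DNA in the Sox11 difference was not tested.

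Oligodendrocyte-like nuclei, found in PDGFB-NLS and Control, showed the widest SOX differences. Of 7 measured SOX genes 2 were past 2-fold higher in PDGFB-NLS and 1 was lower, against 9.29% and 0.742% of 14829 genes. Sox9 held 20.5 CPM in PDGFB-NLS and 4.16 CPM in Control, a ratio of 2.22 (1.36 to 3.18). Sox4 held 60.6 CPM in PDGFB-NLS and 23.5 CPM in Control, at 1.28 (0.89 to 1.68). Both genes are usually low in mature oligodendrocytes. Sox2 held 57.8 CPM in PDGFB-NLS and 118 CPM in Control, at -1.12 (-1.39 to -0.85), which over regions called in all libraries was -0.77 (-1.18 to -0.37). Sox10 was lower in PDGFB-NLS, at -0.77 (-0.98 to -0.56), or -0.40 (-0.61 to -0.18) over those regions. Sox8, at -0.41 (-0.61 to -0.21), was lower as well, and so was Sox12, with 132 CPM in PDGFB-NLS and 164 CPM in Control. Sox21 was higher, with 50.7 CPM (42.6 to 59.85) in PDGFB-NLS and 28.9 CPM (23.5 to 35.3) in Control. Sox11 had 111 counts in PDGFB-NLS and 4 in Control, too few for a ratio. Beside these values, the summed oligodendrocyte markers were 1893 CPM in PDGFB-NLS and 2329 CPM in Control, astrocyte markers 402 and 329 CPM, and microglia markers 172 and 90.2 CPM. None of the 11 oligodendrocyte and 10 astrocyte markers was at 0 in either library; of the 12 microglia markers C1qb was at 0 in Control. Median depth was 2969 counts per nucleus in PDGFB-NLS and 23550 in Control. The part of other cells' DNA and of depth in these differences was not tested.

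The distal region with the most signal at each locus also varied by class. Those of Sox21 and Sox11 lie in or next to the gene and are counted in the gene's own level, so their pattern is no separate observation. The Sox9 region 23.5 kb beyond the gene (chr11:112810863-112811737) held 77.1 and 67.8 CPM in the astrocyte-like clusters of PDGFB-NLS, 70.9 CPM in that of PDGFB-WT and 95 CPM in that of Control. In OPC-like nuclei it held 11.9, 10.1 and 6.27 CPM in the same libraries. The Sox8 region 4.1 kb away (chr17:25561103-25562478) held 87.0 and 85.4 CPM in astrocyte-like nuclei of PDGFB-NLS, 79.5 CPM in PDGFB-WT and 130 CPM in Control. The Sox21 region next to the gene held 90.9 and 125 CPM in astrocyte-like nuclei of PDGFB-NLS, 109 CPM in PDGFB-WT and 87.4 CPM in Control. The Sox2 region 7.27 kb away (chr3:34642264-34643177) held 59.3 and 60.6 CPM there in PDGFB-NLS, 66.8 CPM in PDGFB-WT and 63.8 CPM in Control.

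At Sox10 the region 28.9 kb beyond the gene (chr15:79192836-79193876) held 48.9 CPM in OPC-like nuclei of PDGFB-NLS, 70.3 CPM in PDGFB-WT and 65.9 CPM in Control. Oligodendrocyte-like nuclei held 88.8 CPM in PDGFB-NLS and 114 CPM in Control. This region was open in inhibitory neuron-like nuclei too, at 69.2 CPM in PDGFB-NLS and 77.0 CPM in Control, where the Sox10 gene itself held 13.8 and 11 CPM. The regions with the most signal at Sox4 and Sox12 were open in every named cluster, at 17.9 CPM or more and at 27.5 CPM or more. The Sox11 gene-body region called in the PDGFB libraries alone held 19.98 CPM in OPC-like nuclei of PDGFB-NLS and 14.5 CPM in those of PDGFB-WT, and 31.5 CPM in inhibitory neuron-like nuclei of PDGFB-NLS.

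Over 20 clusters of the 3 libraries, protein-coding genes among those most like Sox11 were Hcn4 and Adgrl1, at Pearson r of 0.94 and 0.93 (log2 CPM, centred within each library, 13304 genes ranked). Among those most like Sox9 were Parva and Tnfrsf19, at 0.96 and 0.95. For Sox10 they were Elfn2, Rasgef1c and Ugt8a (0.96, 0.95 and 0.95), for Sox2 Fam171b, Agt and Pou3f3 (0.95, 0.94 and 0.93) and for Sox21 Asb8, Cfap100 and Disp3 (0.95, 0.94 and 0.94). Sox4, open nearly everywhere, had lower values, led by Slc46a1 at 0.86. These correlations describe clusters that share libraries and depths.

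Among 10 other SOX genes, 8 were measured at gene ends in PDGFB-NLS against Control and 3 in each of the other comparisons, and 0 were past 2-fold. The highest against Control were the SOXD genes Sox5, with 14.8 CPM in PDGFB-NLS and 9.39 CPM in Control (0.67, 0.34 to 1.01), and Sox6, with 28.2 CPM in PDGFB-NLS, 34.1 CPM in PDGFB-WT and 20.6 CPM in Control. The lowest was Sox18, a factor of endothelial cells, with 7.73 CPM in PDGFB-NLS and 10.4 CPM in Control.

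Of 14 partner factors, which act with SOX proteins at shared sites, 12 were measured in PDGFB-NLS against Control and 11 in PDGFB-WT against Control, with medians of -0.02 and 0.20. Past 2-fold higher were 1 and 2 of them, against the 1.27% and 2.26% of all genes, and 0 were lower. Pou3f2, a partner of SOX2 and one of the 2, had 63.6 CPM in PDGFB-NLS, 89.4 CPM in PDGFB-WT and 44.96 CPM in Control, for a ratio of 1.15 (0.95 to 1.35) in PDGFB-WT against Control. The lowest were Pou3f3 (-0.27) and Zeb2 (-0.26) in PDGFB-NLS, and the myelin factor Myrf (-0.29, -0.63 to 0.04) in PDGFB-WT.

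Of 15 genes listed as glial targets of SOX9 and SOX10, 12 and 6 were measured against Control in PDGFB-NLS and PDGFB-WT, with medians of -0.03 and 0.25. Gfap, the intermediate filament of reactive astrocytes, was the one past 2-fold in both, with 32.3 CPM in PDGFB-NLS, 40.2 CPM in PDGFB-WT and 5.55 CPM in Control. The lowest in PDGFB-NLS was the myelin gene Mag (-0.49, -0.77 to -0.21). Cspg4, which encodes the NG2 proteoglycan of precursor cells, had 5.54 CPM in PDGFB-NLS and 18.2 CPM in PDGFB-WT, at -1.85 (-2.34 to -1.35). Of 11 targets of SOX2, SOX4 and SOX11, 9 and 5 were measured against Control, with medians of 0.28 and 0.34. Egfr, a growth factor receptor of progenitors, had 13.2 CPM in PDGFB-NLS and 5.90 CPM in Control (1.18, 0.79 to 1.58). Fabp7, a radial glial gene, had 24.99 CPM in PDGFB-NLS, 28.4 CPM in PDGFB-WT and 14.4 CPM in Control. The tubulin regulator Stmn1 was lowest in both, at -0.25 and -0.33. In PDGFB-NLS against PDGFB-WT none of the measured partner factors or SOX2, SOX4 and SOX11 targets was past 2-fold.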

How the data were processed

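Nuclei of 3 mouse libraries, 1 per group, were profiled with the 10x Chromium Single Cell ATAC v2 kit. The authors deposited, per library, a peak list, barcodes and a matrix of raw counts of cut sites per peak and barcode, written by cellranger-atac 2.1.0 per the file headers; Cell Ranger 8 and build mm10 are named in the submitters' processing notes. How peaks and cells were called is not given in the sources used here. Peaks were called per library, so a region without a peak has an unknown count, not 0.

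Barcodes with at least 200 counts were kept. Overlapping peaks were merged into regions, and a peak's membership was judged on its region. Levels (CPM) are counts per 1000000 counts in regions called in all 3 libraries. Ratios needed 100 counts in the library with fewer (20 within a class) and were centred on the median over all genes; intervals are 95% Clopper-Pearson on fragments (a value of 2 is both ends of 1 fragment; values of 2 or more are paired off) and cover counting error only. Ratios were checked on simulated data.

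Clusters came from peaks in at least 1% of barcodes, TF-IDF, SVD components 2 to 30, 15 neighbours and the Leiden method at resolution 0.6. A name needed a median marker log2 of 1 over the other nuclei, a threshold chosen after seeing the data. No doublet caller was run; an alternative left out the 5% of barcodes with the most counts. All 9 SOX genes are named, with the 2 highest and 2 lowest genes per list in each comparison and the 3 genes most like each SOX gene within 20 clusters. Some items that this rule names are not reported here. The SOX genes and lists were chosen with earlier results of these data known.

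Python 3.11.15, numpy 2.4.6, pandas 2.3.3, scipy 1.17.1, scikit-learn 1.9.0, igraph 0.11.9, leidenalg 0.10.2 and matplotlib 3.10.9 were used. Alternatives covered the end window, barcode and count minimums, depth weighting, peak length and flank. A count restricted to regions called in all 3 libraries within classes was added after seeing the data.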

Additional observations from a re-analysis of the deposited data

How the results depend on the processing

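No paired analysis was possible because each group has 1 library and the groups share only replicate number 1. Of 497 alternative values of 45 single-gene results, 430 stayed within the counting interval, 67 moved further and 0 reversed a value past 2-fold. Only Sox11 at gene ends against Control was past 2-fold, so few alternative values could count as reversed. Smaller gene-end ratios of Sox2, Sox21, Sox4, Sox12, Sox8, Sox9 and Sox10 changed sign under an alternative. At gene ends, counts per kb of peak length moved the SOX median to 0.36 in PDGFB-NLS against Control and to 0.054 in PDGFB-NLS against PDGFB-WT, and using both ends with the gene body moved that of PDGFB-WT against Control to 0.11. The number of SOX genes past 2-fold was 0 in both comparisons with Control at a minimum of 300 counts, which Sox11 did not meet in Control. It was 2 in PDGFB-WT against Control with barcodes of at least 1000 counts, with barcodes weighted equally and per kb, and 1 in PDGFB-NLS against PDGFB-WT per kb. The share of all genes past 2-fold under these settings is not given here, so these counts do not set the SOX genes apart. In distal regions, equal weights moved the PDGFB-NLS against Control median to 0.20, and all distal peaks of each library moved PDGFB-WT against Control to 0.45 and PDGFB-NLS against PDGFB-WT to -0.33. Sox11 ranged between 1.19 and 2.38 in PDGFB-NLS against Control and between 1.51 and 2.79 in PDGFB-WT against Control. Of 66 class ratios, restricting to common regions left 61 within their interval, moved 4 and lost 1. Over 25 pairs of gene and library, the class with the highest level was the same in 24 at resolution 1.0 and in 19 with 50 kb flanks. The cause was not tested. Shallow depth in PDGFB-WT and 57 OPC-like nuclei in Control limit the class values.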
